A study of Homo sapiens with 6 samples.

Results

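SP5, SP6, SP7, SP8 and SP9 are zinc finger transcription factors of the SP family, distinct from the widely expressed SP1 to SP4. All 5 genes were found by symbol among the 60107 gene IDs of the count table. The study followed H9, an established human embryonic stem cell line, during directed differentiation toward nephron progenitors, which give rise to the tubules and filters of the kidney, and collected RNA at the end of day 9. In 3 libraries the cells had complete media, which contain glutamine, and in the other 3 they had glutamine deprivation from day 0 through day 9; line, time and protocol were shared. SP6 was selected on its counts in this same contrast, which separate the groups, so its difference is described without a test. The remaining 4 belong by name.

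SP proteins bind GC-rich DNA through adjacent zinc fingers near the end of the protein. SP5 and SP8 are targets of canonical Wnt signalling, and in the mouse primitive streak and tailbud they help Wnt to activate its target genes. SP6, also called epiprofin, is known from tooth epithelium and from the apical ectodermal ridge, the signalling rim of the limb bud, where SP8 also acts. SP7, or osterix, is required for osteoblasts, and SP9 acts in the limb ridge and, with SP8, in forebrain interneurons.

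Libraries held 78220507 to 84746566 counts, and levels are given as CPM, the count scaled by library size. Headings in the count table name days 0 and 9, while the labels place every sample at day 9. The sample descriptions tie the day 0 headings to complete media, and every direction rests on them. Replicate 1 in complete media stood apart: its log2 CPM correlated at 0.9758 and 0.9762 with its own group and at 0.9908 to 0.9927 with the deprived libraries. Results are therefore also given without it. It was left out because it resembled the deprived libraries, which tends to widen the differences between groups. Adjusted p from that fit are therefore given as a description. All 14 nephron progenitor markers passed the filter on low counts, and of 7 pluripotency markers NANOG, PRDM14 and TDGF1 had at most 2 counts and POU5F1 at most 13 in any library, while DPPA4 had 8877 to 21940, DNMT3B 4034 to 6850 and ZFP42 561 to 926. Nothing says whether replicates were separate cultures, so p-values measure the spread between these samples. In such bulk RNA, fewer cells of a type and less RNA per cell cannot be told apart.

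The stretch of messenger RNA that encodes the 3 zinc fingers shows how close the members are. It is printed 5′ to 3′ for the 3 members with the highest counts, from GENCODE 29 transcripts on GRCh38, with the codons of the zinc-binding cysteines and histidines in capitals. Its 243 bases lie in exon 2 of 2 of SP5 (chr2:170717099-170717341, plus strand), exon 2 of 2 of SP6 (chr17:47847422-47847664, minus strand) and exon 3 of 3 of SP8 (chr7:20784449-20784691, minus strand).
SP5: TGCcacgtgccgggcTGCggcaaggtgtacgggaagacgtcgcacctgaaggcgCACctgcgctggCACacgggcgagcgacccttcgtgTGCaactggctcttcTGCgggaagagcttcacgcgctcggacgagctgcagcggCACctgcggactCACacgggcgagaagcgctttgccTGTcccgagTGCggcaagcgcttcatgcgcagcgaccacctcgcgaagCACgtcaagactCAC
SP6: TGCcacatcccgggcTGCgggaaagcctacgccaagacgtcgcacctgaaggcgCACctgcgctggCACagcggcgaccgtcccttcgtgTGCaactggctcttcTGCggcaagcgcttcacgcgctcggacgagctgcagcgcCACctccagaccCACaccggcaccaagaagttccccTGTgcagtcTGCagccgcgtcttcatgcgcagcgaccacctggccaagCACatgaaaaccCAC
SP8: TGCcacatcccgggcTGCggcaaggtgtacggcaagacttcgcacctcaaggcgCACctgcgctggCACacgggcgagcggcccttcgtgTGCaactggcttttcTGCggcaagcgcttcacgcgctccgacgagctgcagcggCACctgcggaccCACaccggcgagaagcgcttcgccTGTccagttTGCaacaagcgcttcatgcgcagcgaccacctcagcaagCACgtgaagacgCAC
SP5 and SP8 shared 220 of the 243 bases (90.5%). SP6 shared 200 with SP5 (82.3%) and 206 with SP8 (84.8%). Among the 10 pairs within SP5 to SP9 the median identity was 83.2%, and among the 20 pairs with one of SP1 to SP4 it was 66.9%. Reads were 50 bases long, and few windows of that length were shared with a transcript of another gene: 1.1% in SP5, 0.32% in SP6, 0.11% in SP8 and 0 of 3406 windows in SP7. In SP9 61.16% were shared, with the provisional gene model AC018470.1, which overlaps SP9 on the opposite strand, and with SP5, SP6 and SP8. AC018470.1 itself had at most 1 count in any library.

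The DNA before SP5 and SP8 carries CTTTGA, the core letters that TCF and LEF factors of the Wnt pathway recognise. The 200 bases before each start are shown on the strand of the gene, from RefSeq on GRCh38.p14, with CTTTGA or its reverse complement TCAAAG in capitals. They are chr2:170715137-170715336 (plus strand) for SP5 and chr7:20786887-20787086 (minus strand) for SP8.
SP5: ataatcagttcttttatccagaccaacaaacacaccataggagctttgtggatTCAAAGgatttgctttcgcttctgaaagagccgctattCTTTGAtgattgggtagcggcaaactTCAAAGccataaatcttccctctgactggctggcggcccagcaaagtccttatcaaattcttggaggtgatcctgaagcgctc
SP8: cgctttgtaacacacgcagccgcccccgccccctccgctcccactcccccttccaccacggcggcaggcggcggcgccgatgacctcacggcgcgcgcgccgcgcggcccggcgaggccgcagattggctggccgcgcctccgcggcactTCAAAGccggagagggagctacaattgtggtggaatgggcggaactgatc
In the RefSeq windows from 250 bases before to 50 after the start, searched on both strands, SP5 held 3 matches, at 147, 109 and 83 bases before the start. SP8 held 1, at 50 bases before it. Of 34796 promoter windows of this length, 12.9% held at least 1 match and 0.1% held at least 3. A match describes the letters and does not show binding. Of the 5 members 2 were matched to this table; SP6, SP7 and SP9 were not.

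SP6 was the most abundant member and was higher in every deprived library than in any library with glutamine. SP6 (ENSG00000189120, chromosome 17 at 47844908 to 47855874, minus strand, GENCODE 29) had 673, 544 and 518 counts in complete media and 1465, 1393 and 1218 under deprivation, in order of replicate. As CPM these were 8.29, 6.97 and 6.59 and 17, 17.8 and 15.5. The groups lay apart, as the choice of SP6 required, and replicate 1 in complete media stayed with its own group. The means were 7.28 ± 0.895 CPM and 16.8 ± 1.16 CPM (SD, n = 3), a ratio of 2.30. The fitted log2 fold change, deprived against complete media, was 1.20 (SE 0.12), and 1.31 (SE 0.10) when replicate 1 in complete media was left out. Groups that do not overlap in this direction occurred in 17.3% of all genes tested, and DESeq2 called 7.75% of genes higher. SP6 was picked for its separation, so nothing is read from it.

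SP8 was lower under deprivation, although 1 library with glutamine came close to the deprived ones. SP8 (ENSG00000164651, chromosome 7 at 20782283 to 20786886, minus strand) had 110, 471 and 476 counts in complete media and 73, 76 and 49 under deprivation. The levels were 1.36, 6.03 and 6.06 CPM and 0.849, 0.97 and 0.624 CPM. Every deprived library lay below every library with glutamine, but replicate 1 was only slightly above them while replicates 2 and 3 were far above. The means were 4.48 ± 2.71 CPM in complete media and 0.814 ± 0.176 CPM under deprivation (SD, n = 3). The fitted log2 fold change was -2.45 (SE 0.58), not called by edgeR's quasi-likelihood test (Benjamini-Hochberg adjusted p = 0.0722). DESeq2 called it (adjusted p = 0.0041), and over all alternatives the adjusted p ran from 1.31e-06 to 0.259. Groups without overlap in this direction made up 16.9% of all genes tested.

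None of the 4 tested members was called by edgeR with all libraries, a call that 0.00442% of genes received. At an unadjusted p under 0.05 there was 1 of the 4, SP8, against 29.7% of all genes. DESeq2 also called 1 of the 4, SP8, against 14.4% of the genes it adjusted, 6.63% being lower. With replicate 1 in complete media left out, SP8 fell by 2.89 on the log2 scale (SE 0.16, edgeR adjusted p = 1.31e-06). That fit called 41.3% of all genes, 22.3% higher and 19% lower, so a call in it is common.

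**Figure D1:**
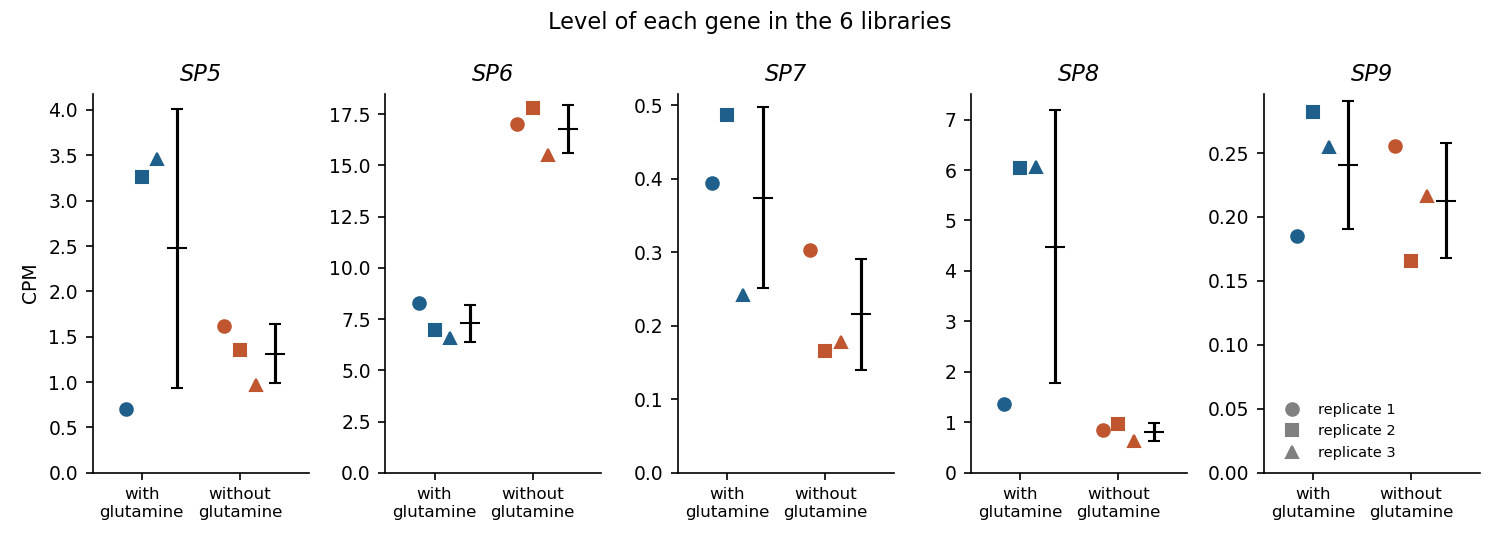
Level in CPM (vertical axis from 0, own scale for each gene) of SP5 to SP9 in every library with and without glutamine, with mean and SD (n = 3). SP6 lay between 6.59 and 8.29 CPM with glutamine and between 15.5 and 17.8 without. Replicate 1 with glutamine lay below the other libraries of its group in SP5 and SP8, and also in SP9, which had few counts.

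SP5 was also low in replicate 1 in complete media and was not called with all libraries. SP5 (ENSG00000204335, chromosome 2 at 170715351 to 170718078, plus strand) had 57, 255 and 272 counts in complete media and 139, 106 and 76 under deprivation. The levels were 0.702, 3.27 and 3.46 CPM and 1.62, 1.35 and 0.968 CPM. The lowest of the 6 values was thus in a library with glutamine, and the groups overlapped. The means were 2.48 ± 1.54 CPM and 1.31 ± 0.326 CPM (SD, n = 3), with a log2 fold change of -0.91 and an SE of 0.54 (edgeR adjusted p = 0.288). In the fit that left out replicate 1 in complete media SP5 fell by 1.35 on the log2 scale (SE 0.19, edgeR adjusted p = 0.000419). Leaving out each of the other 5 libraries in turn gave values from -1.085 to -0.59, with an adjusted p of at least 0.351.

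SP7 and SP9 were near the bottom of the measurable range. SP7 (ENSG00000170374, chromosome 12 at 53326575 to 53345315, minus strand) had 32, 38 and 19 counts in complete media and 26, 13 and 14 under deprivation. Its groups overlapped, with a log2 fold change of -0.78 and an SE of 0.36 (edgeR adjusted p = 0.197). SP9 (ENSG00000217236, chromosome 2 at 174334946 to 174338492, plus strand) had 15, 22 and 20 counts in complete media and 22, 13 and 17 under deprivation. Its groups overlapped too, with a log2 fold change of -0.16 and an SE of 0.28 (edgeR adjusted p = 0.72). Leaving out replicate 1 in complete media called neither. All 5 members passed the filter on low counts, each with at least 13 counts in every library.

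The balance between members differed between libraries. SP6 made up 75.9%, 40.9% and 39.7% of the SP5 to SP9 counts in replicates 1, 2 and 3 in complete media, against 84.9%, 87.0% and 88.6% under deprivation. Per kilobase of exon the level of SP6 was 5.58, 1.05 and 0.993 times that of SP8 in complete media and 18.3, 16.7 and 22.7 times under deprivation. Replicate 1 in complete media was thus between the other libraries of its group and the deprived ones. Both measures hold SP6, which was picked for its separation, so their difference between groups is a description only.

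SP1 to SP4, found in most tissues, stood above SP5 to SP9 in every library when compared per kilobase of exon. On that scale SP1 was at 28.4 ± 1.56 CPM in complete media and 26.8 ± 1.67 under deprivation (SD, n = 3). SP3 was at 24.9 ± 2.30 and 22.8 ± 0.903, SP4 at 6.66 ± 0.292 and 6.84 ± 0.259, and SP2 at 5.18 ± 0.129 and 5.56 ± 0.114. In complete media the lowest SP1 value, 26.8, was just above the highest SP3 value, 26.4.

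Among the members, again per kilobase, SP6 led with 1.79 ± 0.220 CPM in complete media and 4.12 ± 0.284 under deprivation. In complete media SP8 at 1.21 ± 0.728 and SP5 at 1.20 ± 0.747 came next. SP8 reached 1.63 and SP5 reached 1.68, above the lowest SP6 value of 1.62, so these 3 neighbours did not differ beyond their spread. Under deprivation SP5 at 0.637 ± 0.158 was above SP8 at 0.219 ± 0.0472 with no shared values. SP7 and SP9 came last, at 0.110 and 0.0941 CPM in complete media and 0.0631 and 0.0833 under deprivation, with overlapping values.

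**Figure D2:**
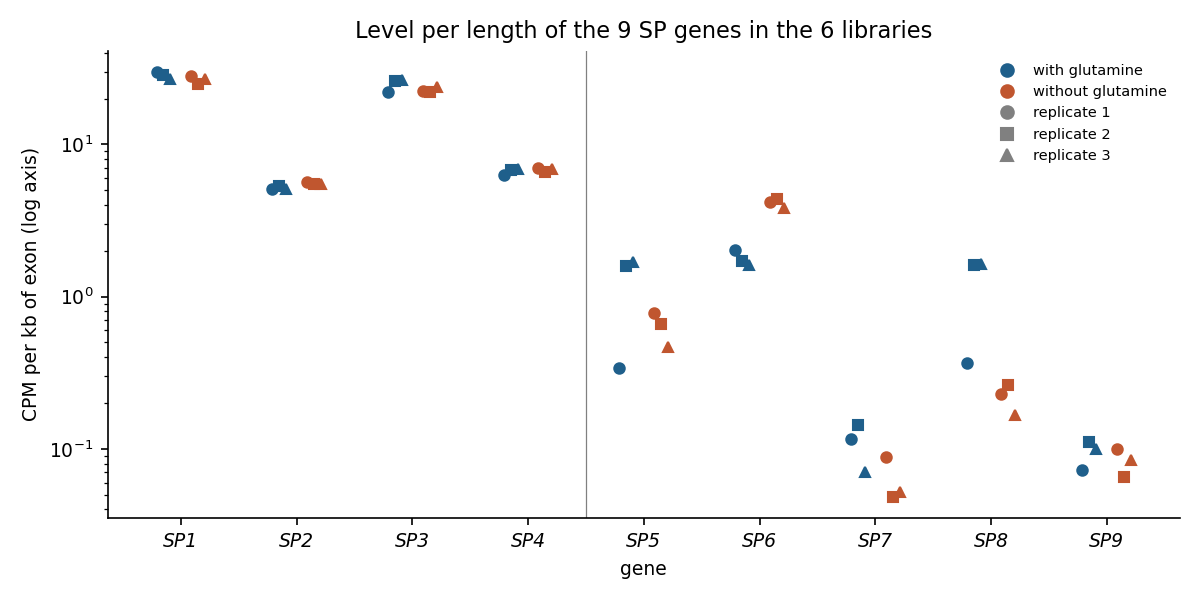
CPM per kilobase of annotated exon (vertical log axis) of the 9 SP genes, 1 point per library, coloured by group. SP1 to SP4 lay above SP5 to SP9 in all 6 libraries, and without glutamine SP6 reached 4.36 where the lowest SP2 value was 5.48.

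The log2 fold changes of SP1 to SP4 were -0.09, 0.10, -0.13 and 0.04, with edgeR adjusted p of 0.347 to 0.760. None of the 4 had an unadjusted p under 0.05 or was called by DESeq2. SP2 had groups without overlap, at 18.5, 19.4 and 18.7 CPM in complete media and 20.7, 20.0 and 20.0 CPM under deprivation. In the fit without replicate 1 in complete media SP3 fell by 0.20 (SE 0.07, edgeR adjusted p = 0.0358). The median of the 4 was -0.02, beside 0.001 over all genes tested.

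**Figure D3:**
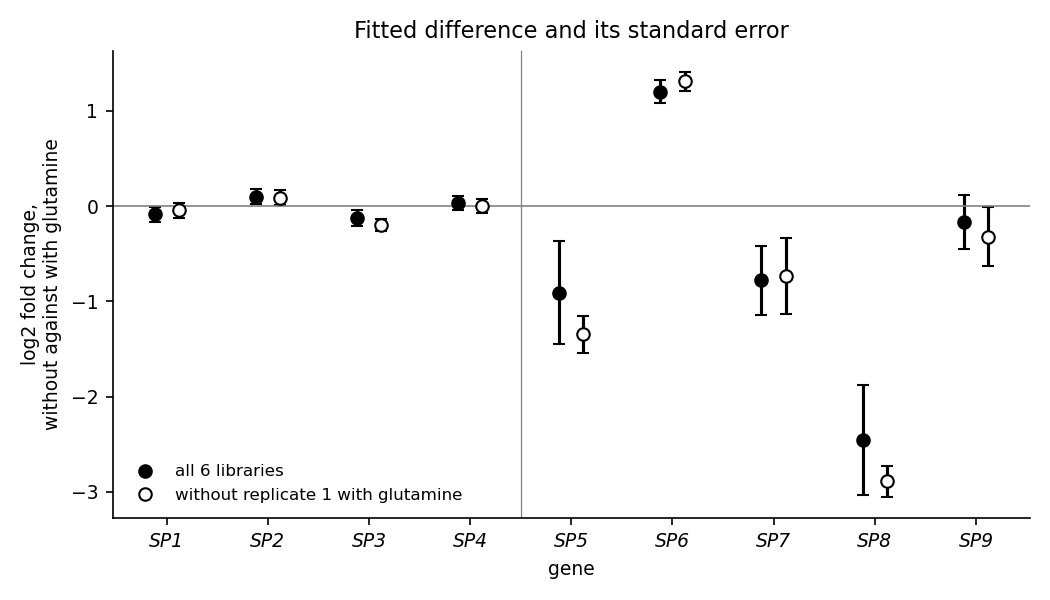
Fitted log2 fold change, without against with glutamine (points), and its standard error (bars) of the 9 SP genes, with all 6 libraries and without replicate 1 with glutamine. SP8 was at -2.45 and -2.89, SP5 at -0.91 and -1.35 and SP6 at 1.20 and 1.31, while SP1 to SP4 lay between -0.20 and 0.10.

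Genes of the pathways and tissues in which these factors are known were followed in lists. With all libraries edgeR called no gene of any list, so the counts below are of genes at an unadjusted p under 0.05, of DESeq2 calls, and of groups without overlap among the genes tested. Calls in the fit without replicate 1 in complete media are given beside them. Over all genes the unadjusted p was under 0.05 for 29.7% in either direction, DESeq2 called 7.75% higher and 6.63% lower, and 17.3% higher and 16.9% lower did not overlap. The fit without that library called 22.3% of all genes higher and 19% lower. The counts of each list stand against these shares, and none is called particular to its list.

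Wnt target and feedback genes, the pathway that SP5 and SP8 belong to, went in both directions. Of 16 genes 14 were tested. At an unadjusted p under 0.05 there were 4 higher and 3 lower, DESeq2 called 1 higher and 2 lower, and 3 higher and 1 lower did not overlap. The median log2 fold change was 0.23. The fit without replicate 1 in complete media called 6 higher and 5 lower, with a median of 0.11 over the same genes, and without deprived replicate 1 the median was 0.1175. TNFRSF19, a receptor of the tumour necrosis factor family, had 105, 307 and 319 CPM in complete media and 94.5, 77.5 and 79.3 under deprivation (log2 fold change -1.54, edgeR adjusted p = 0.0762). As for SP8, replicates 2 and 3 in complete media were far above all other libraries. The naming rule left out the other lower genes, whose groups overlapped. AXIN2, LEF1, NKD1, NKD2 and NOTUM had log2 fold changes of -0.12, -0.48, -1.34, -0.59 and -0.39. NKD1 had 38.9, 97.8 and 102.9 CPM in complete media and 39.3, 26.1 and 29.4 under deprivation.

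Fitted values were higher for 8 of the tested Wnt genes and lower for 6, and the naming rule picked LGR5, CCND1 and RNF43 among the higher. LGR5, a receptor for R-spondins, had 19.5, 2.71 and 2.74 CPM in complete media and 22.3, 32.3 and 30.2 under deprivation (log2 fold change 1.76, edgeR adjusted p = 0.162). CCND1, which encodes cyclin D1, had 364, 88.6 and 96.4 CPM and 559.5, 467 and 412 CPM (log2 fold change 1.39, edgeR adjusted p = 0.142). In both, replicate 1 in complete media was nearer to the deprived libraries than to its own group. RNF43, a ligase that removes Wnt receptors, had 4.68, 3.98 and 3.97 CPM and 6.43, 5.41 and 5.12 CPM, a log2 fold change of 0.42 (edgeR adjusted p = 0.112).

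Tailbud and primitive streak genes, from the setting where SP5 and SP8 are best known, had 13 lower and 6 higher fitted values among the 19 tested of 22. The unadjusted p was under 0.05 for 0 higher and 6 lower, DESeq2 called 0 higher and 4 lower, and 1 higher and 3 lower did not overlap. The median was -0.63 and depended on the fit. Over the same 19 genes it was -0.3167 with limma-voom and -0.3164 with the replicate block. Over 21 genes it was -0.3403 with no filter and -0.3443 with DESeq2. Without replicate 2 or 3 in complete media it was -0.3862 or -0.3444. The fit without replicate 1 in complete media called 1 higher and 11 lower, with a median of -0.996 over the same genes and -0.788 over the 20 genes it fitted. RSPO3, a secreted amplifier of Wnt signals, had 26.9, 59 and 62.6 CPM in complete media and 16.2, 15.4 and 17.5 under deprivation (log2 fold change -1.60, edgeR adjusted p = 0.068). Its replicate 1 in complete media was low for its group but still above every deprived library. The ligand WNT3A had 2.99, 3.23 and 3.21 CPM and 6.61, 3.92 and 3.23 CPM (log2 fold change 0.55, edgeR adjusted p = 0.212), and 1 deprived library stood out. The summed level of the list was 155, 239 and 244 CPM in complete media and 176, 159 and 155 CPM under deprivation. Replicates 2 and 3 in complete media were the high ones, as in SP5 and SP8, and the part of this in the SP5 and SP8 values was not tested.

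**Figure D4:**
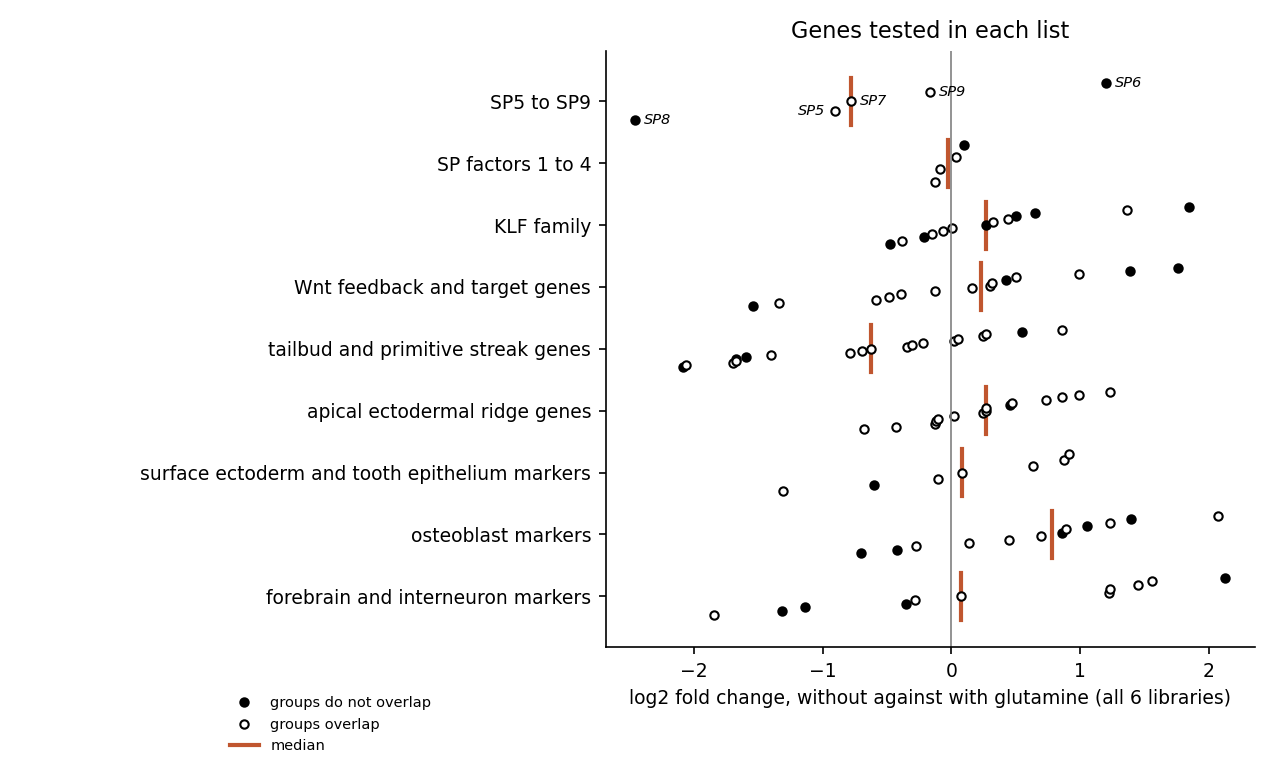
Log2 fold change without against with glutamine (horizontal axis, all 6 libraries) of the tested genes in the lists shown and of SP5 to SP9. Points are filled where the groups do not overlap, and the median is a bar. The nephron progenitor and pluripotency lists are not drawn. SP8 at -2.45 lay below every gene drawn from the lists. The tailbud and primitive streak genes had a median of -0.63, which was -0.3167 with limma-voom and -0.3164 with the replicate block.

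Markers of surface ectoderm and tooth epithelium, the tissues of SP6, had 4 higher and 3 lower fitted values. They ran from -1.31 for TFAP2C to 0.92 for TFAP2A, both with overlapping groups. Of 16 genes 7 were tested and 8 had at most 10 counts in every library. The keratins KRT5 and KRT14 and the enamel genes AMBN and AMELX had at most 2 counts anywhere. The keratin KRT17 had 3, 2 and 0 counts in complete media and 8, 8 and 3 under deprivation. The enamel gene ENAM had 3, 0 and 2 counts and 5, 11 and 13 counts. Neither was tested with all libraries, and in both the few counts did not overlap between groups. The summed level was 35.8 to 43.4 CPM in complete media and 35.3 to 45.3 under deprivation, and the groups overlapped. At an unadjusted p under 0.05 there were 1 higher and 2 lower, and DESeq2 called 0 higher and 2 lower, with a median of 0.08. EDAR, a receptor of skin appendages, was the 1 tested gene without overlap, at 11.4, 7.45 and 8.02 CPM in complete media and 6.65, 5.5 and 5.54 under deprivation (edgeR adjusted p = 0.0983). The fit without replicate 1 in complete media called 3 higher and 2 lower.

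In the apical ectodermal ridge list, the limb setting of SP6, SP8 and SP9, 15 of 17 genes were tested. The unadjusted p was under 0.05 for 3 higher and 1 lower, and DESeq2 called 1 higher and 0 lower, with a median of 0.27. BMP4, a growth factor also made by mesoderm, was the 1 tested gene without overlap, at 110.2, 73.7 and 71.7 CPM in complete media and 124, 113 and 115 under deprivation (edgeR adjusted p = 0.13). The fit without replicate 1 in complete media called 6 higher and 4 lower. The summed level was 292 to 331 CPM in complete media and 319 to 389.5 CPM under deprivation.

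Osteoblast markers, the setting of SP7, had 12 of 14 genes tested and a median of 0.78. At an unadjusted p under 0.05 there were 5 higher and 2 lower, DESeq2 called 3 higher and 1 lower, and 3 higher and 2 lower did not overlap. IBSP and MEPE, markers of mineralised bone, had 0 counts in all 6 libraries, where 3 counts in a library would be the limit. SOST, an inhibitor of Wnt signals in bone, had 1.27, 0.499 and 0.674 CPM in complete media and 2.55, 2.09 and 1.82 under deprivation (log2 fold change 1.40, edgeR adjusted p = 0.0722). PHEX, ALPL and BGLAP had log2 fold changes of 1.05, -0.42 and -0.70 (edgeR adjusted p = 0.0964, 0.0827 and 0.123). Summed levels overlapped, at 1196.5 to 1539.9 CPM in complete media and 1170.7 to 1690.2 CPM under deprivation, mostly from the collagen genes COL1A1 and COL1A2. The fit without replicate 1 in complete media called 7 higher and 2 lower.

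Forebrain and interneuron markers, the setting of SP8 and SP9, had 11 of 17 genes tested and a median of 0.07. The unadjusted p was under 0.05 for 0 higher and 5 lower, DESeq2 called 0 higher and 1 lower, and 1 higher and 3 lower did not overlap. NKX2-1 and GSX2 had at most 1 count in any library. EMX2, a gene also of the developing kidney, had 65.2, 3.76 and 3.79 CPM in complete media and 122, 111 and 84.9 under deprivation (log2 fold change 2.13, edgeR adjusted p = 0.216). PAX6 had 3.33, 4.19 and 3.77 CPM and 3.12, 2.65 and 3.04 CPM (edgeR adjusted p = 0.162). The summed level was 278 to 309 CPM in complete media and 326 to 372 CPM under deprivation. It includes EMX2, whose mean rose by more than that of the sum, so the higher sum does not describe the list. It also includes TSHZ1, at 153, 175 and 171 CPM in complete media and 154, 124 and 131 under deprivation. The fit without replicate 1 in complete media called 5 higher and 5 lower.

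KLF genes encode the relatives closest to the SP factors, and 13 of 17 were tested, with a median of 0.27. At an unadjusted p under 0.05 there were 4 higher and 2 lower, DESeq2 called 3 higher and 1 lower, and 4 higher and 2 lower did not overlap. KLF4 had 0.666, 0.141 and 0.14 CPM in complete media and 1.13, 1.28 and 1.06 under deprivation (log2 fold change 1.85, edgeR adjusted p = 0.0813). KLF5 had 1.82, 1.61 and 1.48 CPM and 2.5, 2.55 and 2.65 CPM (log2 fold change 0.65, edgeR adjusted p = 0.0721), and as in SP6 replicate 1 in complete media stayed with its group. KLF7 and KLF8 had log2 fold changes of 0.51 and -0.48 (edgeR adjusted p = 0.0767 and 0.0857). The fit without replicate 1 in complete media called 6 higher and 3 lower.

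Nephron progenitor markers, the intended cell type, had a median of 0.34, and of 0.5627 without replicate 1 in complete media. The unadjusted p was under 0.05 for 3 higher and 5 lower, DESeq2 called 1 higher and 3 lower, and 4 higher and 2 lower did not overlap. The naming rule picked only higher genes here, and the 2 lower genes without overlap fell outside it. HOXD11, HOXA11, LHX1 and GDNF had log2 fold changes of 4.67, 3.20, 2.07 and 1.37 (edgeR adjusted p = 0.068, 0.0722, 0.217 and 0.0762). The summed level was 1702, 1114 and 1049 CPM in complete media and 2127, 1805 and 1593 CPM under deprivation, and the fit without replicate 1 in complete media called 8 higher and 6 lower. Of 7 pluripotency markers 3 were tested, with a median of 0.38, and 2 were higher at an unadjusted p under 0.05, 1 by DESeq2. DPPA4 and ZFP42 had groups without overlap, with log2 fold changes of 0.80 and 0.38 (edgeR adjusted p = 0.0724 and 0.168).

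Several genes next to SP5 shared its high values in replicates 2 and 3 in complete media. GAD1, which makes the transmitter GABA and lies 95.1 kb past SP5, had 1.44, 6.61 and 7.39 CPM in complete media and 1.65, 1.66 and 0.98 under deprivation (log2 fold change -1.84, edgeR adjusted p = 0.1003). ERICH2, 65.7 kb past SP5, had 0.887, 1.61 and 1.71 CPM and 0.791, 0.778 and 0.624 CPM (log2 fold change -0.93, edgeR adjusted p = 0.0992). The noncoding RNA gene LINC01124, 0.784 kb before SP5 on the other strand, had 5, 41 and 48 counts and 3, 12 and 6 counts (log2 fold change -2.17, edgeR adjusted p = 0.145). All 3 were low in replicate 1 in complete media.

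AC007405.1, a noncoding RNA gene 5.01 kb past SP5, had a log2 fold change of -0.93 (edgeR adjusted p = 0.158). These 4 neighbours were called lower in the fit without replicate 1 in complete media, which called 41.3% of all genes and 19% lower, with log2 fold changes of -2.28 for GAD1, -1.18 for ERICH2, -2.69 for LINC01124 and -1.22 for AC007405.1. MYO3B, 60.2 kb before SP5, had at most 17 counts and a log2 fold change of 0.57 (edgeR adjusted p = 0.307). UBR3, 631 kb before SP5, was at -0.23 (edgeR adjusted p = 0.14). Without replicate 1 in complete media UBR3 was also called lower, at -0.29 (edgeR adjusted p = 0.0125), and MYO3B was not called.

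Beside SP6, SCRN2, which lies 3.58 kb away, had 33.7, 28.4 and 29.6 CPM in complete media and 28, 28.5 and 26.6 under deprivation (log2 fold change -0.14, edgeR adjusted p = 0.312). LRRC46 and SP2 were at 0.56 and 0.10 on the log2 scale (edgeR adjusted p = 0.248 and 0.394). Next to SP8, the transporter gene ABCB5, 5.25 kb away on the other strand, had 12, 8 and 3 counts in complete media and 25, 32 and 34 under deprivation, the opposite direction (log2 fold change 1.94, edgeR adjusted p = 0.0689). ITGB8, 367 kb away, and DNAH11, 756 kb away, were at 0.65 and 0.51 (edgeR adjusted p = 0.117 and 0.144), and SP4 was at 0.04. Without replicate 1 in complete media LRRC46, ABCB5, ITGB8 and DNAH11 were called higher (edgeR adjusted p = 0.0129, 0.0021, 4.5e-05 and 0.0092). That fit called 22.3% of all genes higher.

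Near SP7, AMHR2 had a log2 fold change of -0.90 without overlap (edgeR adjusted p = 0.0938), and AAAS and C12orf10 were at -0.06 and -0.08. Near SP9, OLA1, CIR1 and SCRN3 were at -0.10, -0.12 and -0.23. The noncoding RNA gene LINC01305, 4.3 kb away, was at -0.73 without overlap (edgeR adjusted p = 0.141). Without replicate 1 in complete media AMHR2, SCRN3 and LINC01305 were called lower (edgeR adjusted p = 0.0379, 0.0105 and 0.0359). That fit called 19% of all genes lower. The strand setting of the counting is not given, so reads of genes that overlap on opposite strands cannot be told apart.

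**Figure D5:**
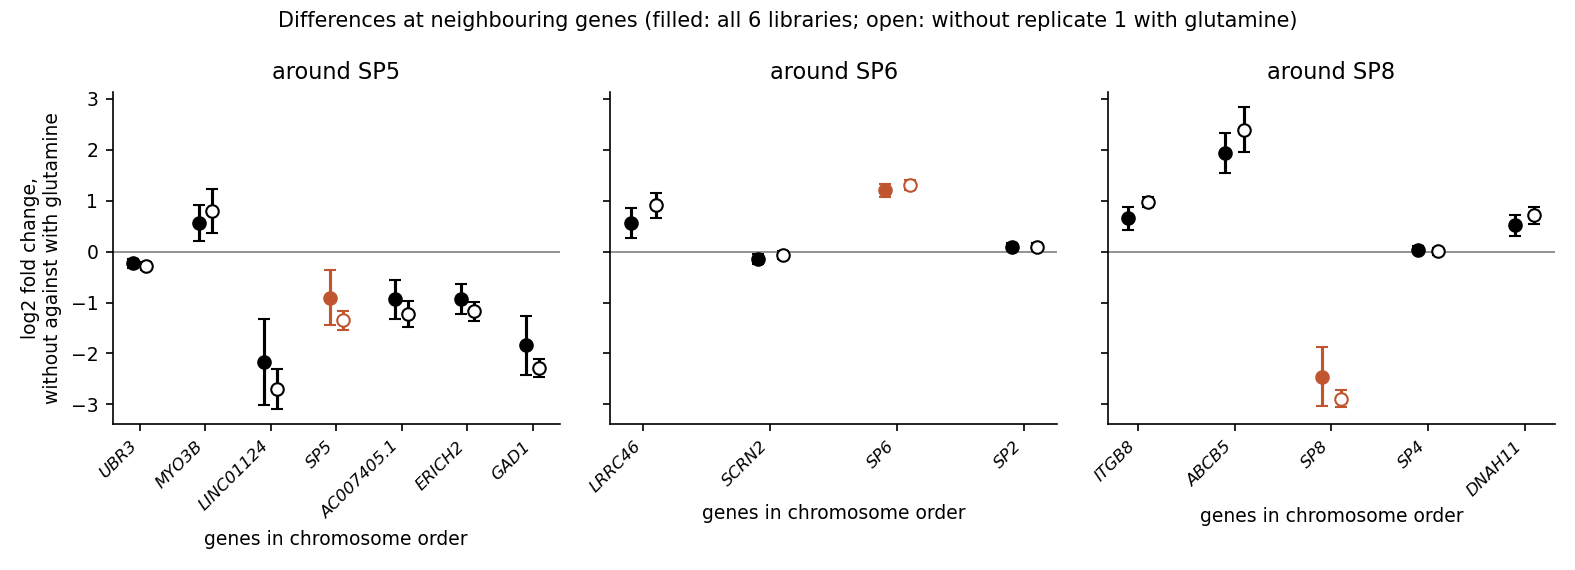
Log2 fold change without against with glutamine (vertical axis) and standard error of SP5, SP6 and SP8 and of the genes around them that the text names, in chromosome order, with all 6 libraries and without replicate 1 with glutamine. ERICH2 and GAD1 beside SP5 were at -0.93 and -1.84, SP2 beside SP6 at 0.10, and ABCB5 beside SP8 at 1.94.

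Genes with the most similar pattern were ranked by Pearson's r of log2 CPM over the 6 libraries, as a description: the libraries share their groups and the separate replicate, so high values are common. For SP6 2.33% of the compared genes had r above 0.95, and BTBD11, RER1, MB21D2, SRSF8 and UBE2C came first, with r from 0.993 to 0.995. UBE2C, an enzyme of mitotic exit, had 66.8, 57.5 and 57.5 CPM in complete media and 95.7, 93.2 and 85.8 under deprivation. For SP8 5.79% had r above 0.95, led by AC090061.1, PRKCSH, CYP4X1, C16orf89 and MRPS5, with r from 0.997 to 0.999. PRKCSH, a subunit of a glucosidase of the endoplasmic reticulum, had 275, 328 and 333 CPM and 259.7, 262 and 248 CPM, far smaller steps than those of SP8.

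For SP5 the share was 1.12%, led by C2orf69, DDAH2, RPL3P2, HK2 and PDE4D, with r from 0.994 to 0.998. HK2, a hexokinase of glycolysis, had 114, 243 and 238 CPM in complete media and 163, 164 and 133 under deprivation, and its lowest value was in the same library as that of SP5. SP7, with few counts, was followed by AP000811.1, LINC00843, VMAC and AC024075.3, and SP9 by SAYSD1, ADCY1, FAM172A, ANO7 and HGS. Between members r was 0.83 for SP5 and SP8, -0.89 for SP6 and SP8 and -0.50 for SP5 and SP6.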

How the data were processed

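Per the labels, stranded mRNA libraries were sequenced as single reads of 50 nt. The values used are raw counts for Ensembl gene IDs, deposited as 1 column for each of 6 libraries. Trim Galore, cutadapt, FastQC, STAR 2.5.2b, DESeq2 and GRCh38 are named per the submitters' processing notes, without roles; the counter, annotation and strand setting are not given in the sources used here. A second deposited table, of normalized counts, was not used. Titles gave the groups and replicate numbers. GENCODE 29 gave symbols, positions and exon lengths for 56531 IDs, and the 3576 others held 0.148% of counts.

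The test was edgeR 4.0.16 under R 4.3.3 (quasi-likelihood F, legacy = FALSE, TMM scaling, filterByExpr), fitted to the counts of 22613 genes with Benjamini-Hochberg adjustment over all of them and a threshold of 0.05. An SE is the absolute log2 fold change over the square root of F. Log2 CPM used a prior count of 2. DESeq2 1.42.0 and limma 3.58.1 gave alternatives. The test was checked on simulated counts of 6 libraries with 200 changed genes. It recovered 56.18% of genes changed by 1 log2 unit and 95.5% of those changed by 2, with 16 false calls. No simulated library stood apart as replicate 1 in complete media did, so these shares may not hold for the data.

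The 5 members, the 10 gene lists and the tests were chosen with earlier results of these data known. From each list the text names up to 4 genes, those with the largest change among genes whose groups do not overlap and whose mean count reaches 50 in one group. It also names the nearest protein-coding genes, up to 2 a side, and the 5 most similar genes with that mean count for each member. Noncoding neighbours within 10 kb, markers with few counts and some list genes outside the rule were named after their values were seen. A few genes that meet these rules are not reported here.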

Additional observations from a re-analysis of the deposited data

How the results depend on the processing

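Of 56 values of the 4 tested members under the alternatives none reversed, and 53 stayed on their side of the threshold. SP6 was not tested and kept its sign in its 14. SP8 became called under DESeq2 (log2 fold change -2.46, adjusted p = 0.0041). With 1 library left out SP8 ran from -2.885 to -2.176, SP5 from -1.347 to -0.5865 and SP6 from 1.134 to 1.31. By edgeR SP5 and SP8 were called only without replicate 1 in complete media. The replicate block gave -2.264 for SP8 (edgeR adjusted p = 0.129) and -0.7467 for SP5 and changed no member's call. Correlations of the deviations of same-numbered libraries were -0.021, 0 and 0.028. With groups of 3 and replicate 1 in complete media apart, these values cannot show whether same-numbered libraries were paired.

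The count of 1 called gene became 0 under upper quartile scaling, edgeR's legacy setting, limma-voom and the replicate block, where 6923, 6599, 7047 and 6280 genes had an unadjusted p under 0.05. It became 2 with no filter and 3065 under DESeq2. With 1 library left out it ran from 0 to 9573: 9573 without replicate 1 in complete media, 17 without deprived replicate 1, and 0 for each other library, where 3688 to 4692 genes had an unadjusted p under 0.05. The cause was not tested.

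Of 140 list medians 4 changed sign. The forebrain median of 0.07, over 11 genes, was -0.09926 with no filter and -0.1013 under DESeq2, both over 16 genes. With 1 library left out it was -0.02053 to 0.1262, and that of SP1 to SP4 was -0.0472 to 0.01879. The surface ectoderm median of 0.08, over 7 genes, was 0.5634 with no filter and 0.5916 under DESeq2, both over 16 genes. With 1 library left out it was 0.1041 to 0.5929, over 7 or 8 genes. Without replicate 1 in complete media it was 0.5929 over 8 genes and 0.013 over the same 7 genes. The nephron progenitor median of 0.34 was 0.2273 to 0.5627 and the tailbud median of -0.63 was -0.788 to -0.3444 with 1 left out, and the latter was -0.3167 with limma-voom and -0.3164 with the replicate block. Scaling choices shifted the median over all genes by less than 0.1. Low counts limit SP7 and SP9 to large differences.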
